A study of Mus musculus with 5 samples.

Results

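p53 target genes, the genes that the tumour suppressor p53 switches on in stressed cells, were examined in mouse gastric organoids, which are cell clusters grown from stomach epithelium. The members were 30 named genes, chosen by symbol from knowledge of the pathway and with earlier results of these data known. This also held for the other gene lists, so their counts beside the shares of all genes are descriptions and not tests. Each was represented by the array probe with the highest mean signal among the probes whose transcript accession mapped to its symbol. All 30 had such a probe among the 23779 genes with a named probe, and all 30 were among the 17583 genes tested, which had to be well above background on 1 array or more. 28 of the 30 were well above background on every array, the exceptions being Eda2r and Ckm.

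RNA from 5 organoid samples was hybridised to one-colour Agilent arrays, 1 array per sample. 4 samples were organoids recovered from tumours grown under the skin, all with Trp53 loss: 2 carried a hairpin against Cdh1 (shCdh1 #1 and shCdh1 #2), 1 carried the Apc lesion labelled Apc580D (Apc) and 1 the Pik3ca mutation H1047R (Pik3ca). The control was an organoid line from Trp53flox/flox mice, whose Trp53 alleles are flanked by loxP sites, that had received the pLKO.1 vector with a luciferase hairpin and was sampled before injection under the skin. All 5 were grown in the same medium, which held EGF, R-spondin1, Noggin, Jagged-1, the kinase inhibitor Y27632 and the GSK3 inhibitor CHIR-99021, and none was treated further. The study's design text counts 7 tumour-derived organoids, of which those beyond these 4 were not analysed here. The labels give no animal age, no Cre source and no statement that the tumours grew from the control line or from separate animals, so p-values measure the spread between these samples, which may be partly technical. The contrast with the control joins Trp53 loss, the other lesion, growth as a tumour and any difference of line, which cannot be told apart. Every comparison with the control uses the same control array.

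p53 is a transcription factor that is held at low levels by the ubiquitin ligase Mdm2 and is stabilised by DNA damage and other stress. It binds a response element made of a pair of adjoining decamers, often near the start or in the first intron of its targets. Its targets stop the cell cycle, start apoptosis, assist DNA repair and feed back on p53 itself, and in organoids their basal level depends on how much stress the culture carries.

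Levels are log2 signals from which the 75th percentile of the array was subtracted, so a level of 0 is the signal of that percentile. Between 61.8% and 65.3% of the 59305 non-control spots per array were well above background. Trp53 stood at −5.06 and −5.09 in shCdh1 #1 and #2, −5.86 in Apc and −4.86 in Pik3ca, against 0.85 in the control. The tumour-derived signals were well above background but near the dimmest that counted so on those arrays (−6.23 to −5.89), which makes the size of a fold uncertain. Trp53 fell 67.3-fold (log2 −6.07 ± 0.43 SE, adjusted p = 0.0344 in limma). Like every call against the control, this one ended without shCdh1 #1, without shCdh1 #2, without Pik3ca and with slide as a block, where 0 genes passed in limma (2218, 2032, 1852 and 1821 at an unadjusted p below 0.05). Apc and Pik3ca alone make up slide 2, so with slide as a block the fit compares only the shCdh1 pair with the control. Whether the Trp53 probe lies in the deleted part was not checked. All samples are labelled female, but on the Pik3ca array the X-inactivation transcript Xist was not well above background (−8.14) and 4 Y-linked genes, namely Uty, Kdm5d, Eif2s3y and Ddx3y, were (−3.15 to 1.35), unlike on the other 4 arrays. The count of members below the control, the median over the members and the calls against the control are therefore also given without that array. Most other values keep it. Of 12 gastric epithelial markers, 11 were well above background on all 5 arrays, Gkn1, a pit cell protein, being so in Pik3ca and the control alone. 10 of the 12 had a mean below the control, with a median difference of −0.68, and 0 passed in limma (1 at an unadjusted p below 0.05).

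Most of the p53 targets stood lower in the tumour-derived samples than in the control. 24 of the 30 members lay below the control on all 4 tumour-derived arrays, where 24.4% of all genes tested did. 15 of the 30 lay at least 2-fold below the control on all 4, where 2.77% of all genes tested did. 3 members had a higher signal than the control on all 4 arrays, against 30.2% of all genes, and the remaining 3, Plk2, Rrm2b and Sesn1, were mixed. Of the 3 with a higher signal, Pmaip1 and Apaf1 were measured on every array. The third, Ckm, was well above background in shCdh1 #1 alone and has no order between the control and the other 3 samples. The median difference from the control over the 30 members was −1.35 in shCdh1 #1, −1.06 in shCdh1 #2, −1.37 in Apc and −1.40 in Pik3ca, while the median over all genes lay between −0.01 and 0.09. Without the Pik3ca array 24 members again lay below the control on every remaining array, and the median over the members was −1.36.

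Some gastric epithelial markers stood lower in the same samples. Cblif, the gastric intrinsic factor, stood at −1.46 and 0.00 in shCdh1 #1 and #2, 1.20 in Apc and −1.49 in Pik3ca, against 3.97 in the control (−4.41 ± 1.15, adjusted p = 0.273). Pgc, the pepsinogen C of chief and mucous neck cells, stood at 0.01 and 1.31 in shCdh1 #1 and #2, 0.23 in Apc and −2.41 in Pik3ca, against 3.11 in the control (−3.33 ± 1.38, adjusted p = 0.397). Both lay below the control in every tumour-derived sample, Cblif by 6.82-fold to 44-fold and Pgc by 3.5-fold to 46-fold. They differed most of the 12 gastric markers and were named after their values were seen. Of the 12, 6 lay below the control on all 4 tumour-derived arrays, where 24.4% of all genes did. Besides Cblif and Pgc, these were Krt8, Tff1, Tff2 and Gkn2. Epcam and Sox2 lay above the control on all 4, where 30.2% did, and 4, with Muc6 and Muc5ac among them, were mixed. The keratin Krt18 stood at 7.90 to 8.18 in the tumour-derived samples and 8.11 in the control (−0.07 ± 0.22). Whether the markers and the p53 targets are linked was not tested.

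In limma, 1 of the 30 members, Eda2r, passed at an adjusted p of 0.05 over all genes, and 0.119% of all genes did. An unadjusted p below 0.05 was reached by 19 members that were lower, where 6.5% of all genes were lower by that rule, and by 2 members that were higher, where 6.84% of all genes were. With 1 control array, the control adds no spread of its own to any of these tests. Eda2r was well above background in the control alone and entered the tests through that array. The spread behind its p-value is that of signals near background. In bulk RNA, fewer cells that express a gene and less RNA per cell cannot be told apart.

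**Figure D1:**
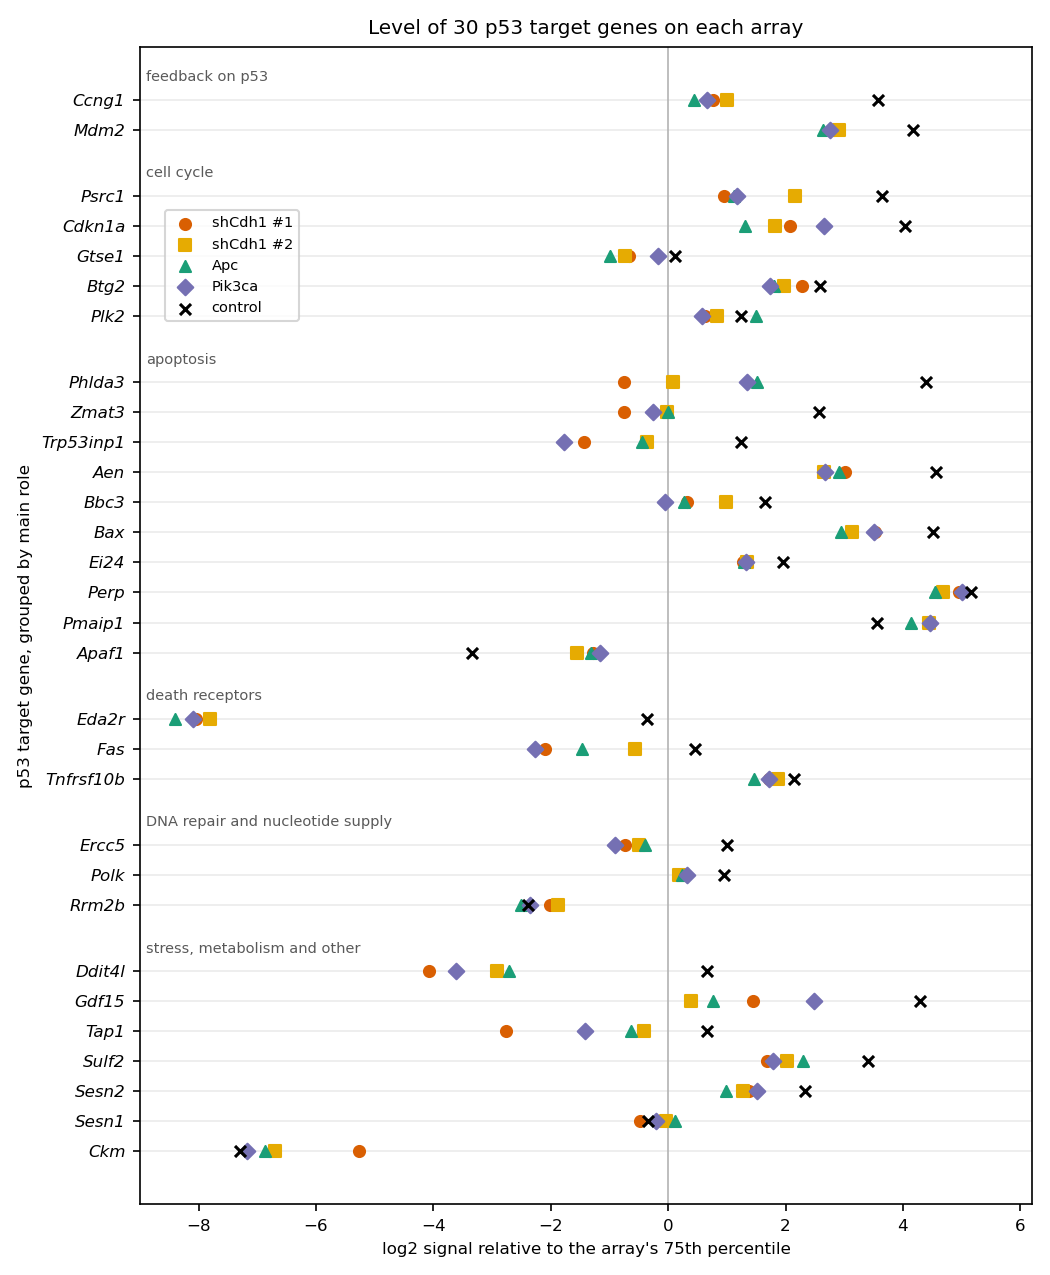
Level of each of the 30 p53 target genes, as log2 signal relative to the array's 75th percentile (horizontal axis), with 1 point per array and genes grouped by main role. The control crosses lie to the right of all 4 tumour-derived points for 24 genes and to the left of them for Pmaip1 and Apaf1. Ckm was well above background in shCdh1 #1 alone.

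Both feedback genes lay below the control in every tumour-derived sample, where 24.4% of all genes did. Ccng1 encodes cyclin G1, which brings a phosphatase to Mdm2 and so restrains p53. It stood at 0.77 and 1.00 in shCdh1 #1 and #2, 0.44 in Apc and 0.66 in Pik3ca, against 3.58 in the control. The 4 tumour-derived values lay within 0.56 of each other and did not overlap the control, at 5.95-fold to 8.79-fold lower (mean difference −2.86 ± 0.28, adjusted p = 0.0931). This value passed when background was corrected by normexp (−2.69, adjusted p = 0.0208) and when dim signals were raised to a floor (−2.86, adjusted p = 0.0449), and its adjusted p ranged up to 0.291 over the alternatives.

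Mdm2, which encodes the ligase that marks p53 for degradation, stood at 2.83 and 2.91 in shCdh1 #1 and #2, 2.64 in Apc and 2.76 in Pik3ca, against 4.18 in the control. All 4 were close together and below the control, by 2.42-fold to 2.92-fold (−1.40 ± 0.22, adjusted p = 0.171). A second Mdm2 probe differed by −1.59. Both Mdm2 probes were well above background on all 5 arrays.

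Among cell cycle genes, Cdkn1a and Psrc1 had the largest differences and Plk2 did not keep a direction. Cdkn1a encodes p21, the cyclin-dependent kinase inhibitor through which p53 halts the cell cycle. It stood at 2.08 and 1.82 in shCdh1 #1 and #2, 1.31 in Apc and 2.65 in Pik3ca, against 4.03 in the control. The 4 tumour-derived samples did not overlap the control, and their distance from it varied between 2.60-fold in Pik3ca and 6.57-fold in Apc (−2.07 ± 0.52, adjusted p = 0.268).

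A second Cdkn1a probe, assigned by its accession to the gene's other RefSeq transcript and singled out after its values were seen, separated the samples more widely. It read −6.86 and −6.37 in shCdh1 #1 and #2, −7.43 in Apc and −8.14 in Pik3ca, against 0.45 in the control. It was well above background in the control alone, so the tumour-derived samples were at least 86.4-fold lower by this probe. With the mean of both probes in place of the brighter one, Cdkn1a passed in limma (−4.86, adjusted p = 0.033). That value takes in 4 tumour-derived signals that were not well above background, so it is not a measured fold.

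Psrc1, which encodes a microtubule-associated protein of the mitotic spindle, stood at 0.96 and 2.16 in shCdh1 #1 and #2, 1.13 in Apc and 1.17 in Pik3ca, against 3.65 in the control (−2.30 ± 0.51, adjusted p = 0.244). shCdh1 #2 was the highest of the tumour-derived samples, at 2.81-fold below the control against 5.59-fold to 6.46-fold for the others. Btg2, an antiproliferative gene, ranged over 1.73 to 2.28 in the tumour-derived samples against 2.58 in the control. Gtse1, whose protein binds p53 and moves it out of the nucleus, ranged over −0.99 to −0.18 against 0.11 in the control.

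Plk2, a polo-like kinase of the centrosome and stress response, stood at 0.63 and 0.84 in shCdh1 #1 and #2, 1.50 in Apc and 0.57 in Pik3ca, against 1.25 in the control. The Apc sample lay above the control and the other 3 tumour-derived samples below it (−0.37 ± 0.42, adjusted p = 0.746).

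Promoter sequences of the members were searched for the p53 consensus to show what the element looks like at genes of this group. RefSeq tables of build GRCm38.p6 held 34 promoters (250 bases before to 50 after an annotated start) for 24 of the members, and none for Perp, Pmaip1, Rrm2b, Tnfrsf10b, Trp53inp1 and Zmat3. The search used the p53 consensus of 20 bases, a pair of adjoining decamers that reads the same on both strands, with the CNNG core of each decamer kept. At most 1 base off this consensus, a match was found in 3 of the 34 member promoters (8.82%) and in 22 of all 32851 promoters (0.067%). At most 3 bases off, it was found in 7 member promoters (20.6%) of 6 genes and in 1.38% of all promoters. A match is a description of the letters and not evidence of binding.

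The 250 bases before the start of Cdkn1a (chr17:29090729-29090978, plus strand) and Ccng1 (chr11:40755287-40755536, minus strand) are shown 5′ to 3′ because these are the arrest and feedback targets described above, with the match in capitals. For Gtse1 (chr15:85859945-85859964), Bbc3 (chr7:16309486-16309505), Sesn1 (chr10:41887266-41887285) and Aen (chr7:78895937-78895956), all on the plus strand, the match alone is shown.
Cdkn1a: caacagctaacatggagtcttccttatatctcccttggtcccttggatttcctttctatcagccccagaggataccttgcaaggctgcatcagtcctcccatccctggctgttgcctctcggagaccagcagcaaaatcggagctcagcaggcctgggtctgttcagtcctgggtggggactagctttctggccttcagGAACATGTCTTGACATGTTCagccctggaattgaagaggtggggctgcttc
Ccng1: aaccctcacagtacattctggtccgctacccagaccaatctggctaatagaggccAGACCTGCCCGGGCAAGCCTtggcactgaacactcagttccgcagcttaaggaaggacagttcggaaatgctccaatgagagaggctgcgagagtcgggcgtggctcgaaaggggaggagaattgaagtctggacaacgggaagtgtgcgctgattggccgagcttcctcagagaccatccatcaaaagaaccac
Gtse1: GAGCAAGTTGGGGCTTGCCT
Bbc3: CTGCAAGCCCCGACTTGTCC
Sesn1: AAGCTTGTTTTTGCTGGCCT
Aen: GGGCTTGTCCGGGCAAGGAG

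The Cdkn1a match begins 51 bases before the upstream of its 2 annotated starts, which lies 2790 bases from the downstream one. Which start the transcript of the second Cdkn1a probe uses is not given in the tables used here. The Ccng1 match begins 195 bases before its start, and each of the Cdkn1a, Ccng1 and Gtse1 matches is 1 base off the consensus. The Bbc3, Sesn1 and Aen matches are 3 bases off. Genes with a match did not share 1 direction: Ccng1, Cdkn1a, Aen, Bbc3 and Gtse1 lay below the control on all 4 tumour-derived arrays and Sesn1 did not.

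**Figure D2:**
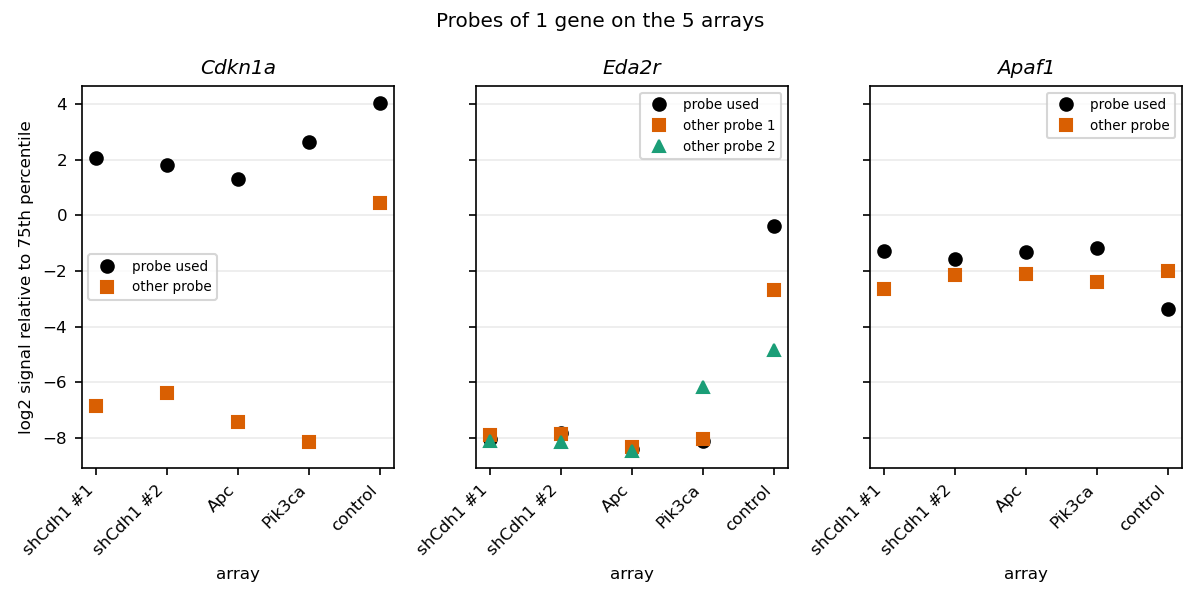
Log2 signal relative to the 75th percentile (vertical axis) of each probe of Cdkn1a, Eda2r and Apaf1 on the 5 arrays (horizontal axis), with the probe used for the gene in black. The second Cdkn1a probe was at 0.45 in the control and between −8.14 and −6.37 in the tumour-derived samples, and the Apaf1 probes moved in opposite directions.

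Among the 10 apoptosis genes, 8 lay below the control on all 4 tumour-derived arrays and 2, Pmaip1 and Apaf1, above it on all 4, where the shares of all genes were 24.4% and 30.2%. The median difference of this group was −1.26, and 0 of its members passed over all genes in limma. At an unadjusted p below 0.05, 7 were lower and 2 higher, where 6.5% and 6.84% of all genes were. Phlda3 encodes a small protein that keeps the kinase Akt from the membrane. It stood at −0.76 and 0.09 in shCdh1 #1 and #2, 1.52 in Apc and 1.34 in Pik3ca, against 4.39 in the control (−3.84 ± 0.96, adjusted p = 0.266). The pair of shCdh1 samples lay furthest down, at 35.5-fold and 19.7-fold below the control, against 7.31-fold in Apc and 8.27-fold in Pik3ca.

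Zmat3, which encodes an RNA-binding zinc finger protein that acts in p53-dependent tumour suppression, stood at −0.76 and −0.02 in shCdh1 #1 and #2, −0.01 in Apc and −0.26 in Pik3ca, against 2.57 in the control. The tumour-derived values were close together and 5.98-fold to 10.1-fold lower (−2.84 ± 0.36, adjusted p = 0.143). With normexp the difference passed (−2.74, adjusted p = 0.0422).

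Trp53inp1, a stress-induced nuclear protein that promotes p53 activity and autophagy, stood at −1.43 and −0.36 in shCdh1 #1 and #2, −0.45 in Apc and −1.77 in Pik3ca, against 1.25 in the control. shCdh1 #1 and Pik3ca were lowest, at 6.40-fold and 8.13-fold below the control (−2.25 ± 0.64, adjusted p = 0.293). Aen, an apoptosis-enhancing nuclease, ranged over 2.66 to 3.02 in the tumour-derived samples against 4.56 in the control (−1.74 ± 0.25, adjusted p = 0.162), and its 4 probes gave differences between −1.97 and −1.69.

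Bax, which opens the outer mitochondrial membrane, stood at 3.53 and 3.13 in shCdh1 #1 and #2, 2.94 in Apc and 3.50 in Pik3ca, against 4.52 in the control (−1.25 ± 0.32, adjusted p = 0.268). Bbc3, which encodes the BH3-only protein Puma, stood at 0.32 and 0.99 in shCdh1 #1 and #2, 0.27 in Apc and −0.06 in Pik3ca, against 1.65 in the control (−1.28 ± 0.43, adjusted p = 0.338). Both genes lay below the control in every tumour-derived sample, by 1.59-fold to 3.27-fold. Ei24, an endoplasmic reticulum protein, had a narrow spread of 0.07 over the tumour-derived samples (1.27 to 1.34, against 1.95 in the control). Perp, a desmosomal tetraspan protein that p63 also induces in epithelia, ranged over 4.54 to 5.01 against 5.16 in the control (−0.37 ± 0.27, adjusted p = 0.612).

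Pmaip1 encodes the BH3-only protein Noxa and ran the other way from Bbc3. It stood at 4.47 and 4.45 in shCdh1 #1 and #2, 4.13 in Apc and 4.46 in Pik3ca, against 3.56 in the control. All 4 tumour-derived samples lay above the control (0.81 ± 0.24, adjusted p = 0.301).

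Apaf1, the scaffold of the apoptosome, stood at −1.28 and −1.56 in shCdh1 #1 and #2, −1.32 in Apc and −1.16 in Pik3ca, against −3.35 in the control (2.02 ± 0.24, adjusted p = 0.117). Its second probe, assigned to the same transcript, ran the other way, at −2.64, −2.13, −2.11 and −2.38 in the same samples against −2.01 in the control. The direction for Apaf1 therefore depends on the probe. Of the 13 members with several probes, Apaf1 was the only one whose probes differed in sign.

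All 3 death receptors lay below the control on all 4 tumour-derived arrays, where 24.4% of all genes did. Eda2r encodes a TNF receptor family member that binds ectodysplasin A2. It stood at −8.05 and −7.81 in shCdh1 #1 and #2, −8.40 in Apc and −8.09 in Pik3ca, against −0.36 in the control. The control alone had a signal well above background, so Eda2r fell at least 49.4-fold (adjusted p = 0.00574). Its other 2 probes gave at least 9.81-fold and at least 2.2-fold. The spread behind the p-value is that of signals near background. The call ended without shCdh1 #1 (adjusted p = 0.0675), without shCdh1 #2 (0.0595), without Pik3ca (0.0602) and with slide as a block (0.0886), while the difference stayed between −7.82 and −7.57. The value with slide as a block, −7.57, is the difference of the shCdh1 pair alone from the control. With normexp the Eda2r difference was −3.67 and the call held.

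Fas, the receptor for Fas ligand, stood at −2.10 and −0.56 in shCdh1 #1 and #2, −1.46 in Apc and −2.26 in Pik3ca, against 0.45 in the control (−2.04 ± 0.70, adjusted p = 0.343). All 4 lay below the control, but shCdh1 #2 was 2.01-fold lower where Pik3ca was 6.51-fold lower. Tnfrsf10b, the mouse TRAIL receptor, ranged over 1.46 to 1.88 in the tumour-derived samples against 2.15 in the control (−0.46 ± 0.25, adjusted p = 0.493).

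**Figure D3:**
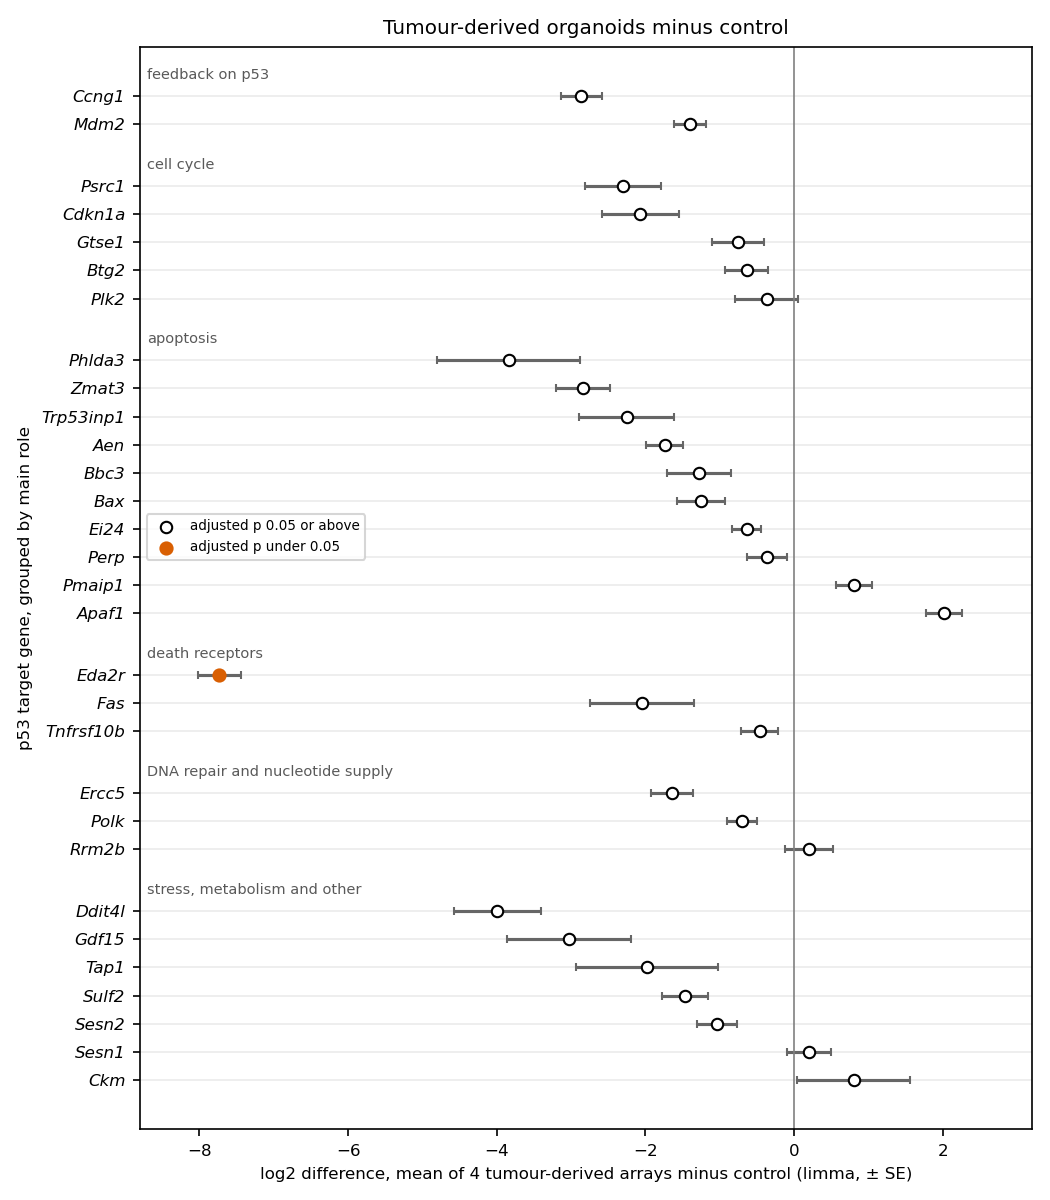
Log2 difference of the mean of the 4 tumour-derived arrays from the control (horizontal axis, limma estimate ± SE) for the 30 members grouped by main role. Eda2r, the filled point at −7.73, is the only member past the adjusted threshold, and its tumour signals are near background.

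Of the 3 members of DNA repair and nucleotide supply, 2 lay below the control on all 4 tumour-derived arrays, where 24.4% of all genes did. Ercc5 encodes the XPG endonuclease of nucleotide excision repair. It stood at −0.74 and −0.50 in shCdh1 #1 and #2, −0.39 in Apc and −0.90 in Pik3ca, against 1.01 in the control (−1.64 ± 0.28, adjusted p = 0.205). Polk, a translesion DNA polymerase, ranged over 0.18 to 0.32 in the tumour-derived samples against 0.96 in the control (−0.70 ± 0.20, adjusted p = 0.292), and its other 2 probes gave −0.37 and −0.20.

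Rrm2b, the p53-inducible ribonucleotide reductase subunit, stood at −2.01 and −1.87 in shCdh1 #1 and #2, −2.51 in Apc and −2.36 in Pik3ca, against −2.38 in the control. The tumour-derived samples lay on both sides of the control (0.20 ± 0.32, adjusted p = 0.83).

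Among the 7 stress, metabolic and other genes, 5 lay below the control on all 4 tumour-derived arrays, where 24.4% of all genes did. The median difference over the 7 was −1.47. Ddit4l encodes an inhibitor of mTOR signalling. It stood at −4.07 and −2.92 in shCdh1 #1 and #2, −2.71 in Apc and −3.62 in Pik3ca, against 0.67 in the control. All 4 tumour-derived samples were 10.4-fold to 26.6-fold lower (−3.99 ± 0.58, adjusted p = 0.162), and with normexp the difference passed (−3.33, adjusted p = 0.021).

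Gdf15, a secreted stress factor of the TGF-β superfamily, stood at 1.44 and 0.39 in shCdh1 #1 and #2, 0.77 in Apc and 2.49 in Pik3ca, against 4.30 in the control. Pik3ca was 3.51-fold below the control and shCdh1 #2 was 15.1-fold below it (−3.03 ± 0.83, adjusted p = 0.281). Sulf2, which removes sulphate groups from heparan sulphate, ranged over 1.68 to 2.30 in the tumour-derived samples against 3.41 in the control (−1.47 ± 0.31, adjusted p = 0.235).

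The sestrin genes, whose products restrain mTORC1 and oxidative stress, differed from each other. Sesn2 stood at 1.37 and 1.28 in shCdh1 #1 and #2, 0.99 in Apc and 1.51 in Pik3ca, against 2.33 in the control (−1.04 ± 0.27, adjusted p = 0.275). Sesn1 stood at −0.48 and −0.04 in shCdh1 #1 and #2, 0.12 in Apc and −0.20 in Pik3ca, against −0.35 in the control. Sesn2 lay below the control in every tumour-derived sample, whereas Sesn1 lay above it in 3 of 4 (0.20 ± 0.29, adjusted p = 0.806).

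Tap1, a subunit of the transporter that loads peptides for MHC class I, stood at −2.77 and −0.41 in shCdh1 #1 and #2, −0.63 in Apc and −1.42 in Pik3ca, against 0.67 in the control. It had the widest range over the tumour-derived samples of any member, 2.36, all of it between the pair of shCdh1 samples (−1.98 ± 0.95, adjusted p = 0.451). A second Tap1 probe gave −2.08. Ckm, the muscle creatine kinase, was well above background in shCdh1 #1 alone (−5.26), and read −6.69 in shCdh1 #2, −6.87 in Apc and −7.17 in Pik3ca against −7.30 in the control. shCdh1 #1 was at least 1.75-fold above the control, and the other 4 signals, none well above background, have no order. The summed level of 6 skeletal muscle markers was 0.499 to 0.531 times the 75th percentile signal in the tumour-derived samples and 0.484 times in the control.

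The members varied among the tumour-derived samples about as much as other genes. The range over the 4 arrays was under 1 on the log2 scale for 20 of 30 members, with a median of 0.61, against 0.63 over all genes tested. It was lowest for Ei24 (0.07) and highest for Tap1 (2.36). The samples with the different hairpins, shCdh1 #1 and #2, differed by over 1 in 7 members. The share of all genes that did so was not computed, so this count is a description alone.

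**Figure D4:**
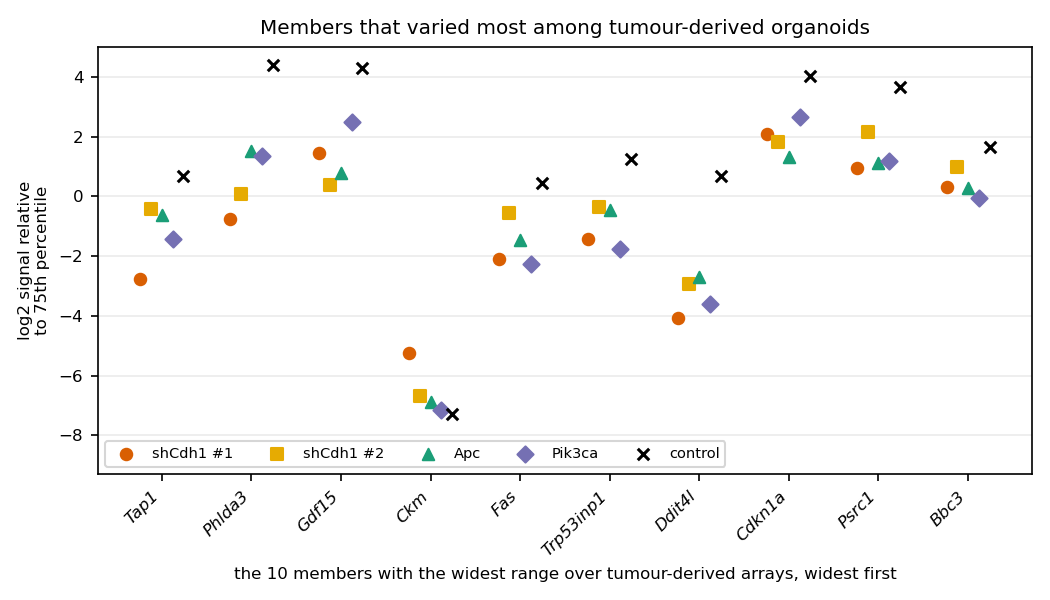
Log2 level relative to the 75th percentile (vertical axis) on each array for the 10 members with the widest range over the tumour-derived samples, from Tap1 at 2.36 downwards. For each of them except Ckm the control cross lies above all 4 tumour-derived points.

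The shCdh1 samples were then compared with the Apc and Pik3ca samples, leaving the control out. 0 of the 30 members passed in limma, and 0% of all genes did. 1 member had an unadjusted p below 0.05, where 4.58% of all genes had. That member was Phlda3, with a mean of −0.34 in shCdh1 and 1.43 in Apc and Pik3ca (−1.76 ± 0.37, adjusted p = 0.97, and 0.708 to 0.991 over the alternatives). The groups did not overlap, with shCdh1 lower, for 1 member, where 13.1% of all genes tested behaved so. They did not overlap, with shCdh1 higher, for 8 members, where the share of all genes was 20.2%. Of these 8, Eda2r was not well above background on any of the 4 arrays and Ckm on only 1. The median difference over the members was 0.05. The shCdh1 arrays share slide 1 and the Apc and Pik3ca arrays share slide 2, so genotype and slide cannot be told apart in this comparison.

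Because the control shares slide 1 with the shCdh1 pair, the comparison of shCdh1 with the control lies within 1 slide. The median difference over the members was −1.26. In a fit with 1 mean per group, 0 members passed, as did 0% of all genes. 16 of the 30 had an unadjusted p below 0.05, where 9.74% of all genes had, and the fit had 1 residual degree of freedom.

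Of 36 further p53 targets, 35 were measured and tested. Their median difference was 0.00, against 0.06 over all genes and −1.34 for the 30 members. 11 of 35 lay below the control on all 4 tumour-derived arrays, where 24.4% of all genes did, 8 lay above it on all 4, where 30.2% did, and 16 were mixed. 0 passed over all genes in limma. At an unadjusted p below 0.05, 5 were lower and 2 higher, where 6.5% and 6.84% of all genes were. The difference between the lists was not tested.

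4 of them had the largest differences among those well above background on all 5 arrays. Pidd1, a death domain protein of the PIDDosome, stood at −1.13 and −1.09 in shCdh1 #1 and #2, −1.25 in Apc and −1.74 in Pik3ca, against 1.02 in the control (−2.32 ± 0.32, adjusted p = 0.156). Ephx1, a microsomal epoxide hydrolase, ranged over 4.27 to 4.64 in the tumour-derived samples against 6.68 in the control (−2.20 ± 0.25, adjusted p = 0.0988). Both lay clear of the control in every tumour-derived sample. Igfbp3, an IGF binding protein (0.96 ± 0.75), and Slc19a2, a thiamine transporter (−0.94 ± 0.38), followed. Zfp365, singled out after its values were seen, was well above background in Apc (−4.86) and the control (−0.88) alone.

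Among 8 genes of p53 and its regulators, Trp53 and Cdkn2a passed. Cdkn2a encodes p16Ink4a and p19Arf, of which p19Arf restrains Mdm2. It stood at 6.01 and 5.98 in shCdh1 #1 and #2, 5.75 in Apc and 5.74 in Pik3ca, against 2.07 in the control, and rose 13.9-fold (3.80 ± 0.23, adjusted p = 0.021). All 4 tumour-derived samples lay within a narrow band above the control. Trp63, the p53 relative of basal epithelia, ranged over 1.90 to 2.25 in the tumour-derived samples against 1.56 in the control (0.51 ± 0.23, adjusted p = 0.434), and the damage kinase Atm was at 0.45 ± 0.28 (adjusted p = 0.546).

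12 cell cycle genes that p53 represses through p21 and the DREAM complex had a median difference of 0.71. 11 lay above the control on all 4 tumour-derived arrays, where 30.2% of all genes did. 0 passed, and 5 were higher at an unadjusted p below 0.05 in limma, where 6.84% of all genes were. The mitotic kinases Aurka (1.14 ± 0.37) and Bub1 (1.09 ± 0.34), the topoisomerase Top2a (1.00 ± 0.26) and cyclin A2, Ccna2 (0.81 ± 0.35), differed most. Psrc1 and Gtse1, the mitotic genes among the members, lay below the control on all 4 arrays where these lay above it.

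**Figure D5:**
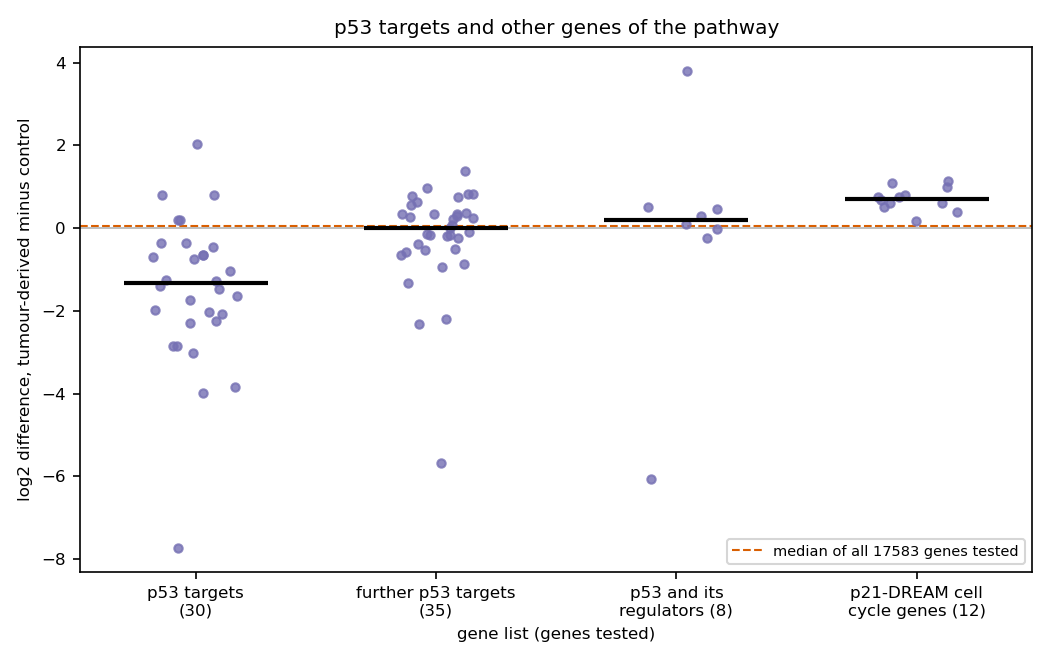
Log2 difference of the tumour-derived mean from the control (vertical axis) for each tested gene of 4 lists (horizontal axis), with list medians as black bars and the median over all genes as the dashed line. The medians were −1.34 for the 30 members, 0.00 for the further targets, 0.19 for p53 and its regulators and 0.71 for the cell cycle genes.

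Markers of other cell types were also summed. 7 fibroblast markers had a summed level of 0.1 to 0.239 times the 75th percentile signal in the tumour-derived samples and 0.0781 times in the control, with Col3a1, Lum and Pdgfrb well above background on none. 5 endothelial markers summed to 0.0892 to 0.113 in the tumour-derived samples and 0.231 in the control, with Tie1 well above background on none. Emcn, a sialomucin of endothelial cells, was among them well above background in the control alone and fell at least 10.9-fold (adjusted p = 0.00788), where the spread behind the p-value is that of signals near background. Its level of −2.54 made up most of the control sum, and the other endothelial markers did not share its direction. Kdr was well above background in shCdh1 #2, Apc and Pik3ca (−5.18 to −4.18) and not in the control, and Cdh5 in shCdh1 #1 alone. Pecam1 ranged over −4.58 to −4.19 in the tumour-derived samples against −4.37 in the control. 6 leukocyte markers summed to 16 to 20.9 in the tumour-derived samples and 11.7 in the control, with Cd79a well above background on none. That sum was carried mostly by Cd68 and Itgam. Ptprc was well above background only in shCdh1 #1, shCdh1 #2 and Apc (−4.86 to −4.63), and Cd3e (0.03 ± 0.24) and Csf1r (−0.05 ± 0.34) differed little from the control. 12 gastric epithelial markers summed to 410 to 607 in the tumour-derived samples and 701 in the control. That sum was carried mostly by the keratins Krt8 and Krt18 and not by Cblif and Pgc. Tff1 also added to it, at 5.13 to 6.96 in the tumour-derived samples and 7.51 in the control. The part of these differences in the levels of the p53 targets was not tested.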

How the data were processed

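RNA from 5 mouse gastric organoid samples was measured on one-colour arrays, 1 per sample. Per the labels' protocols, RNA was purified on columns and amplified from a small input with Cy3. Per the submitters' processing notes, quantification used Agilent Feature Extraction 11.0.1.1. Per the file headers, the deposited processed signal is an intensity already background-subtracted and detrended within the array, with no normalization between arrays. The authors also deposited a value table, in log2 units. Set against the scanner values, its tumour-derived minus control differences gave slope 1 and correlation 1, with constants of −0.0458 to −0.0233, so scale and direction are settled and the baseline subtracted per probe stays unknown. Its column medians were 0.0738 and 0.0312 for shCdh1 #1 and #2, −0.0796 for Apc, 0.0225 for Pik3ca and −0.0572 for the control.

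The log2 processed signal was reduced by each array's 75th percentile over non-control spots. Control spots and outlier spots (78 to 114 per array) were left out, and no spot was saturated. Spots of a probe were averaged. 34549 of 56605 probes matched 1 gene symbol through their accession in a RefSeq table (GRCm38.p6), used for names and, through its promoter table, for sequences. The number of arrays limits the precision.

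limma 3.58.1 in R 4.3.3 (lmFit, eBayes, two-sided, Benjamini-Hochberg over all genes tested, threshold 0.05) compared tumour-derived samples with the control (3 residual degrees of freedom), shCdh1 with the control (1) and shCdh1 with Apc and Pik3ca (2). A lone array is assumed to vary like the other arrays of its fit. ± is the standard error. A gene above background on 1 side alone has a bound ("at least"), computed against its own signal or, where higher, the dimmest signal that counts as well above background on that array. The fits were tested on simulated data. Members and lists were chosen with earlier results of these data known. All members are accounted for, and from the 3 other pathway lists the text names genes that passed, Trp53 and up to 4 with the largest differences, each well above background on every array. Zfp365 and the cell type markers named lie outside this rule and were chosen after their values were seen. Alternatives changed background correction, normalization, filters, probe choice, source of values, slide and arrays.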

Additional observations from a re-analysis of the deposited data

Results flagged for a closer look

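Pmaip1 in the Apc sample (4.13) stood apart from the other tumour-derived samples, which lay between 4.45 and 4.47. The gap to the nearest of them was 0.936 of the whole range over the 4 samples. About 1 in 20 such groups of 4 is set apart in this way by chance, and 30 members were examined. The Apc value was also above the control.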

How the results depend on the processing

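No paired analysis was possible because the labels pair no samples, and the numbers of the shCdh1 samples name hairpins. Over 12 alternatives the median difference of the 30 members from the control stayed between −1.46 and −1.26. The count of members below the control on every tumour-derived array stayed between 23 and 25 (slide as a block gives no such count). Apc and Pik3ca alone make up slide 2. With slide as a block the difference is therefore that of the shCdh1 pair from the control, which gave the −1.26. The count that passed over all genes was 1, and became 4 with normexp background correction (Ccng1, Zmat3, Eda2r and Ddit4l), 2 with dim signals raised to a floor (Ccng1 and Eda2r), 2 with the mean of all probes (Cdkn1a and Eda2r), 0 when a gene had to be well above background on every array, where Eda2r is not tested, and 0 with slide as a block. Leaving out 1 tumour-derived array at a time gave 0 to 1, with 1 only without Apc. Over all genes the number passing was 17 lower and 4 higher, 39 and 9 with normexp, 43 and 6 with the floor, 3 and 4 with the every-array filter, and 0 without shCdh1 #1, without shCdh1 #2, without Pik3ca and with slide as a block in limma (1821 to 2218 at an unadjusted p below 0.05). The cause of these changes was not tested. Of 358 values of single members against the control, 0 changed sign. For shCdh1 against Apc and Pik3ca the median over members was 0.05, and −0.02 to 0.19 with 1 array left out. Eda2r in that comparison, near background on all 4 arrays, turned from 0.32 to −0.07 with the mean of all probes. 0 members passed in either shCdh1 comparison under the alternatives run, and with 1 hairpin left out the comparison with the control has no test (medians −1.35 to −1.06).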
